A study of Mus musculus with 4 samples.

Results

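The lysosomal genes described here are 43 mouse genes, picked by symbol, that make acid hydrolases, their helper proteins, lysosomal membrane proteins, the proton pump and regulators of the organelle. They are the rows of the deposited count table whose Ensembl identifiers map to those symbols in GENCODE M21 on GRCm38, with the cathepsins left out. The table has 55471 genes, and each of the 43 had a row. By role they comprise 20 acid hydrolases, 5 soluble cofactors and carriers, 8 membrane proteins, 6 genes of the proton pump, 3 transcription factors and 1 kinase. The samples were 4 poly(A) RNA-seq libraries of cells taken from mouse brain on magnetic columns through the surface integrin CD11b, all of 1 group. These mice, aged 10 to 13 weeks, had received PLX5622, a drug that blocks the survival receptor CSF1R, for 7 days and then spent 10 days off it, 17 days in all. Each library began with 300 ng of total RNA and used a kit that keeps strand information, and the sources used here do not give strain, sex or any pooling of animals. No untreated group was analysed here, so no effect of the drug is given, and cells that returned after withdrawal cannot be told apart from cells that survived it. The libraries are called 1 to 4 after the replicate numbers in their labels.

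Lysosomes are acidic compartments in which hydrolases take apart proteins, sugars, lipids and sulfated polymers brought in by endocytosis, phagocytosis and autophagy. A rotary proton pump, the vacuolar ATPase, keeps the lumen acidic, heavily glycosylated membrane proteins line it, and small soluble proteins lift lipids out of membranes for the enzymes or for export. Microglia, the resident phagocytes of the brain, are rich in lysosomes, and inherited loss of many of these genes causes storage disease with damage to the brain. Transcription factors of the MiT/TFE family, TFEB, TFE3 and MITF, raise many lysosomal genes through a palindromic E-box in their promoters.

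That E-box was searched for in RefSeq promoter windows of GRCm38.p6, from 250 bases before to 50 bases after each gene's start, and 39 of the 43 genes had such a window. The 8-base form TCACGTGA was in the windows of 4 genes, 10.3% of the 39, against 1.12% of 27025 genes of the same reference. Its first base lay 4 bases before the RefSeq start of Atp6v0d1, so that the motif spans that start. It lay 132 bases before the RefSeq start of Atp6v1a and 46 bases before that of the lysosomal ion channel Mcoln1. For Gla the distances were 195 and 228 bases. GENCODE M21 places some starts elsewhere. There Atp6v1a begins at 44139705 and Mcoln1 at 3500457, so that their motifs lie inside the genes. Atp6v0d1 begins there at 105566047, so that its motif lies wholly before the start. These 5 stretches are printed because they carry the motif in 2 subunits of the proton pump, 1 enzyme and 1 channel, 5′ to 3′ along the gene with the motif in capitals. They lie at chr8:105566051-105566078 (minus strand), chr16:44139374-44139401 (minus strand), chr8:3500463-3500490 (plus strand), chrX:134601183-134601210 and chrX:134601216-134601243 (both minus strand).
Atp6v0d1: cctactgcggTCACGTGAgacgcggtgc
Atp6v1a: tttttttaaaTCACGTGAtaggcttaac
Mcoln1: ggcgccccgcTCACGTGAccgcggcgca
Gla, nearer: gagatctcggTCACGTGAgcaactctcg
Gla, farther: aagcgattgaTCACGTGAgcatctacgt
The 6-base core CACGTG, which the longer form contains, was in 10 of the 39 windows, 25.6%, against 8.09% of all genes, and those 10 also held Arsa, Gaa, Glb1, Lamp1, Naglu and Sgsh. A 10-base form, TCACGTGA with a G before and a C after it, was in 0 of 39, against 0.37% of all genes. Each form reads the same on both strands. A match describes these letters only and shows neither binding nor its absence.

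Depth was even, with totals of 24412573, 23036202, 23585261 and 24487418 counts in libraries 1 to 4. Levels below are CPM, a gene's share of each 1000000 counts, on library sizes scaled with edgeR's trimmed mean method (TMM), and genes are compared with each other only per kilobase of merged exons. All 10 microglial markers were detected, with summed levels of 27274, 26021, 28795 and 23823 CPM. Behind that sum, 6 of the 10 were highest in library 3, while P2ry12, P2ry13, Gpr34 and Fcrls were highest in library 1. Fcrls, for example, had 2106, 1206, 1238 and 1027 CPM. Markers of other cells were also present, and library 3 stood apart in them, with the lowest level of all 6 choroid plexus, all 6 endothelial, all 6 pericyte and all 5 erythroid markers. Summed choroid plexus markers had 11844, 11175, 2259 and 15540 CPM, and 8 interferon response genes had 153, 251, 565 and 379.9 CPM, with all 8 highest in library 3. No marker of these lists was at 0 in all 4 libraries.

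All 43 lysosomal genes were detected, meaning at least 1 CPM in every library, where 22.6% of all genes in the table were. Their counts ran from 97 to 141002 per library. Ranked per kilobase among 12506 detected genes of known length, 19 of the 43 were in the top 500 and 6 in the top 100. Values after ± are the SD over 4 libraries. The labels do not tie the libraries to separate animals, so the errors and p-values cover no more than the scatter among these 4 samples, and that scatter may be technical. Taking the longest transcript as the length in place of merged exons raised the level per kilobase by over 1.5 times for 11 genes, Galc (3.35 times), Lamp2 (2.65), Mcoln1 (2.62), Tfeb (2.42), Man2b1 (2.10), Npc1 (1.97), Manba (1.90), Atp6v1b2 (1.88), Lipa (1.74), Gusb (1.69) and Npc2 (1.65). In these bulk samples, fewer cells of a type and less RNA per cell cannot be told apart.

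**Figure D1:**
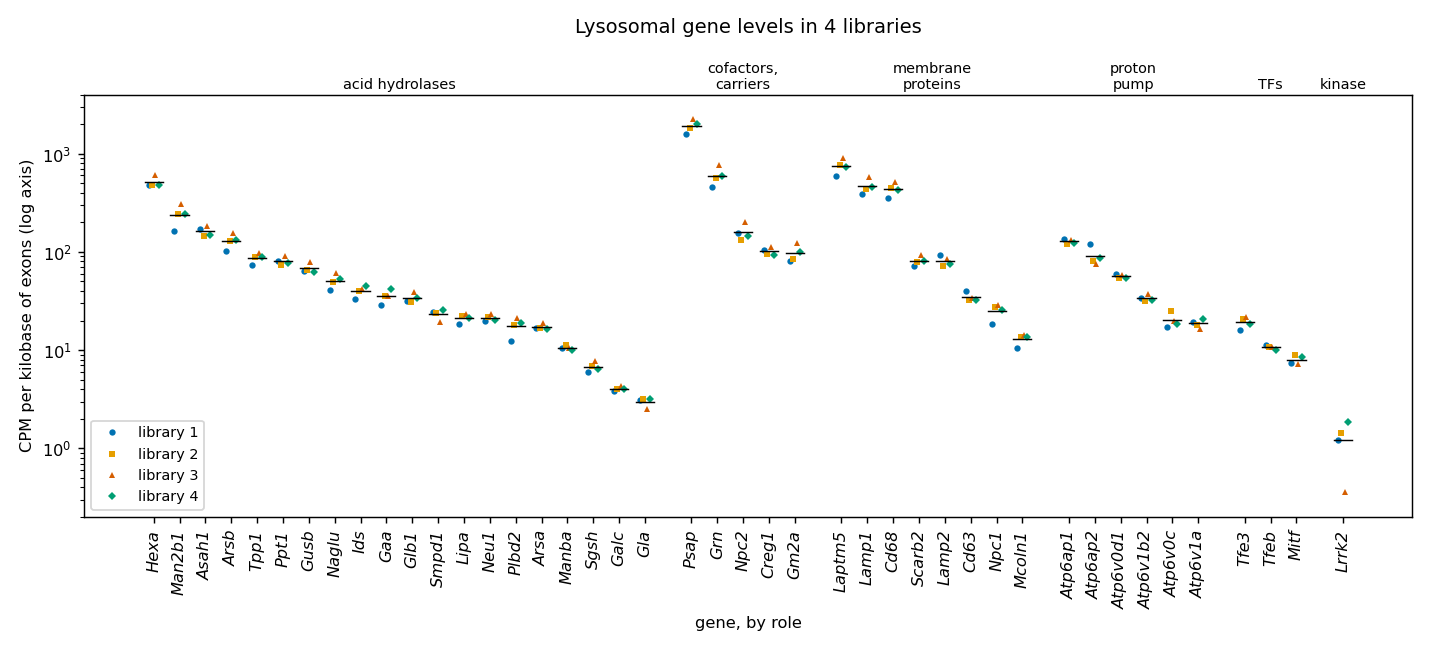
Level of each of the 43 lysosomal genes in CPM per kilobase of exons (log axis), grouped by role, with 1 marker per library and a bar at the mean. Psap stands highest and Lrrk2 lowest, and library 3 is the lowest marker of Lrrk2 and the highest of Psap and Grn.

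Among the 20 acid hydrolases the levels spanned from Hexa, the alpha chain of beta-hexosaminidase, to Gla, the alpha-galactosidase that clears the glycolipid globotriaosylceramide. Hexa (ENSMUSG00000025232, chr9:59539540-59565109) was measured at 969, 952, 1224 and 949 CPM in libraries 1 to 4. Library 3 lay above the other three, which were close together. Per kilobase its mean was 513 ± 67.2 CPM, rank 56 among detected genes, and 12.8% of its exonic bases overlap Tmem202 on the opposite strand. Man2b1, the lysosomal alpha-mannosidase of glycoprotein sugars, was measured at 1321, 1959, 2449 and 1970.1 CPM, lowest in library 1 and highest in library 3. Its ratio of highest to lowest library, 1.85, was the largest of the enzymes, and its mean was 239.8 ± 57.7 CPM per kilobase. Asah1, the acid ceramidase that splits ceramide into sphingosine and a fatty acid, was measured at 579, 495, 616 and 502 CPM, with libraries 1 and 3 above 2 and 4, and had 162 ± 17.5 CPM per kilobase. Gla had 10.1, 10.5, 8.14 and 10.4 CPM, lowest in library 3 where most other hydrolases were highest, and 2.99 ± 0.334 CPM per kilobase. Positions here are whole genes on GRCm38. The ratio of Hexa to Gla per kilobase ran from 149 to 246 across libraries.

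The remaining enzymes filled the range between. Arsb, the sulfatase of dermatan sulfate, was measured at 613, 782, 943 and 793 CPM, lowest in library 1, and had 129.7 ± 22.3 CPM per kilobase. Only 42.2% of the 50-base stretches of its longest transcript are unique when both strands are searched. Of its exonic bases 39.9% overlap genes on the opposite strand. Both figures can count the same overlap, and its level is uncertain. Plbd2, a phospholipase B-like protein, was measured at 82.1, 119, 140.5 and 125 CPM, also lowest in library 1 and highest in library 3, and had 17.6 ± 3.75 CPM per kilobase. Tpp1, a peptidase that trims tripeptides, had 87.1 ± 10.2 CPM per kilobase, Ppt1, which removes fatty acids from proteins, 80.4 ± 7.59, and Gusb, the beta-glucuronidase, 67.9 ± 8.06. Of the enzymes that degrade heparan sulfate, Naglu had 50.9 ± 8.48, Ids 40.2 ± 5.07 and Sgsh 6.80 ± 0.718 CPM per kilobase. Their order, Naglu above Ids above Sgsh, held in every library, and Sgsh overlaps Card14 over 21.6% of its exonic bases. Gaa, which degrades glycogen, had 35.6 ± 5.28 CPM per kilobase, Glb1, the beta-galactosidase, 33.9 ± 3.75, and Smpd1, the acid sphingomyelinase, 23.2 ± 2.78. Lipa, the acid lipase of cholesteryl esters, had 21.3 ± 2.13, Neu1, a sialidase, 21.3 ± 1.56, and Arsa, the sulfatase of sulfatide, 17.2 ± 1.15 CPM per kilobase. Manba, the beta-mannosidase, had 10.6 ± 0.448 and Galc, which cleaves the myelin lipid galactosylceramide, 4.04 ± 0.179 CPM per kilobase. Arsa overlaps C230037L18Rik on the opposite strand over 18.8% of its exonic bases, Glb1 overlaps Tmppe over 5.5% and Plbd2 overlaps Sds over 5.4%, so these levels are less certain. The enzyme group thus held both Hexa, in the top 100 by rank, and Gla and Galc, whose ranks were 8815 and 7857. The place of Galc depended on the length. Per kilobase of the longest transcript it had a mean of 13.5 CPM, above Sgsh at 6.89 and Gla at 3.08. By that length Man2b1, at 504, came close to Hexa, at 513.

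The soluble cofactors and carriers were the most abundant role group per gene, with a median of 159 CPM per kilobase against 34.7 for the hydrolases. Psap (ENSMUSG00000004207, chr10:60277627-60302597), the precursor of the saposins, which help hydrolases reach sphingolipids, was measured at 4333, 5049, 6208 and 5445 CPM. Library 1 was lowest and library 3 highest, and Psap had the highest mean per kilobase of all 43 genes, 1916 ± 285 CPM. Its level was 409 to 528 times that of Galc, 94.0 to 121 times that of Arsa and 9.24 to 13.4 times that of Asah1, enzymes that saposins assist. With the longest transcript in place of merged exons the ratio to Galc fell to between 126 and 163, so that size depends on the length used. Grn, which encodes progranulin, a secreted protein that lysosomes cut into granulins, was measured at 1576, 1946, 2640.0 and 2048 CPM and followed the library order of Psap. It had 591 ± 127 CPM per kilobase, and Psap exceeded it 2.98 to 3.48 times.

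Npc2, the soluble protein that hands cholesterol to the membrane transporter NPC1, was measured at 842, 727, 1100.1 and 792 CPM, highest in library 3 and lowest in library 2. It had 159 ± 30.1 CPM per kilobase. Gm2a, the activator that presents the ganglioside GM2 to hexosaminidase, was measured at 335, 348, 511 and 409 CPM, lowest in library 1 and highest in library 3, with 97.0 ± 19.4 CPM per kilobase. The activator stood at 0.167 to 0.208 of the level of Hexa, the enzyme chain it serves. Creg1, a glycoprotein of the endosomal and lysosomal lumen, had 102 ± 8.43 CPM per kilobase. All 5 genes of this group were highest in library 3, or 3 of 5 when libraries were scaled on microglial markers, where 28.3% and 6.79% of the 14112 tested genes were. With TMM the share was 46.4% among tested genes with a mean of 50 CPM or more.

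Of the 8 membrane proteins, Laptm5, a lysosomal protein of blood-lineage cells, was measured at 2258, 2889, 3397 and 2781 CPM, lowest in library 1 and highest in library 3. Its mean was 748 ± 123 CPM per kilobase, the highest of this group. Lamp1, the major glycoprotein of the lysosomal lining, was measured at 1028, 1172, 1549 and 1215 CPM with the same lowest and highest library, and had 464 ± 82.3 CPM per kilobase. Cd68, a LAMP-family protein of macrophages, was measured at 446, 558, 649 and 537 CPM, again lowest in library 1 and highest in library 3, with 436 ± 66.3 CPM per kilobase. The ratio of Cd68 to Lamp1 was 0.892 to 1.01, so the order of these 2 neighbours was not the same in every library. Lamp2, needed for fusion of autophagosomes and for chaperone-mediated autophagy, had 81.3 ± 9.49 CPM per kilobase and lay below Lamp1 in each library, by 4.14 to 6.82 times per kilobase of merged exons and 1.88 to 3.09 times per kilobase of the longest transcript. Lamp2 and Cd63 were the 2 membrane genes that were highest in library 1.

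Npc1, the multispanning cholesterol transporter, was measured at 211, 308, 323 and 292 CPM, with library 1 below the other three. It had 25.1 ± 4.44 CPM per kilobase, and Npc2 exceeded it 4.91 to 8.32 times, most in library 1. Mcoln1, a cation channel that releases lysosomal calcium, was measured at 80.0, 102, 108 and 103 CPM, with libraries 2 to 4 within a narrow range and library 1 below them, and 13.0 ± 1.67 CPM per kilobase. Scarb2, a membrane receptor of late endosomes and lysosomes, had 81.5 ± 8.78 and Cd63, a tetraspanin of late endosomes and exosomes, 34.6 ± 3.68 CPM per kilobase. A pseudogene copy leaves 90.9% of the exonic sequence of Cd63 unique, and an opposite-strand overlap with Grtp1 leaves 92.9% of that of Lamp1.

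The proton pump has a cytosolic sector, V1, that burns ATP, and a membrane sector, V0, that passes protons. Its accessory subunit Atp6ap1, which takes part in assembly, was measured at 408, 366, 399 and 375 CPM, with little difference between libraries, and had 128 ± 6.45 CPM per kilobase. Atp6ap2, the other accessory subunit, also known as the prorenin receptor, was measured at 316, 213, 198 and 227 CPM (chrX:12587801-12617049). Library 1 was highest and library 3 lowest, the opposite of Psap and Man2b1, and the mean was 91.2 ± 20.3 CPM per kilobase. Of V0, Atp6v0d1, the subunit that links the sectors, was measured at 107, 98.0, 105 and 96.6 CPM and Atp6v0c, the proteolipid of the proton-carrying ring, had 20.1 ± 3.39 CPM per kilobase. Atp6v0d1 had 56.8 ± 2.92 CPM per kilobase, and its ratio of highest to lowest library, 1.11, was close to the 1.11 of Atp6ap1. Of V1, Atp6v1a, the catalytic subunit, was measured at 117, 110.1, 100.1 and 127 CPM, highest in library 4 and lowest in library 3, with 18.8 ± 1.86 CPM per kilobase. Atp6v1b2, the B subunit that alternates with it in the ring, had 33.6 ± 2.39, 1.53 to 2.23 times the level of Atp6v1a. Pseudogenes share sequence with Atp6v0c, of which 87.8% is unique, so its level is uncertain.

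A list of 17 further pump subunits completed the complex, and 13 of them were detected. Tcirg1, the a3 isoform of the proton channel subunit that osteoclasts and macrophages use, had 159 ± 17.3 CPM per kilobase, above the a2 isoform Atp6v0a2 at 48.7 ± 8.08 and the a1 isoform Atp6v0a1 at 28.0 ± 3.91. Atp6v0b, a second proteolipid, had 157 ± 14.2 CPM per kilobase. The kidney-type isoform Atp6v1b1 had 0, 0, 0 and 2 counts, under the floor of 3 counts, while Atp6v1b2 of the same position in the ring had 4414, 3889, 4447 and 4288 counts. The other undetected subunits were Atp6v0d2, Atp6v0a4 and Atp6v1c2, all isoforms with a restricted range of tissues. At the a position Tcirg1 thus had the highest level, and at the d position Atp6v0d1.

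**Figure D2:**
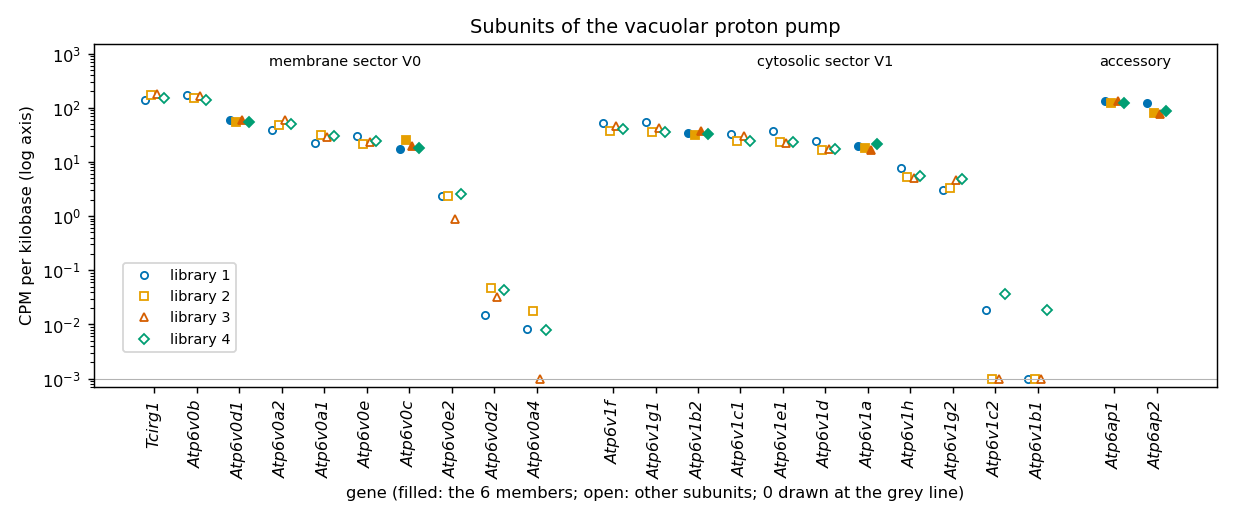
Level of 23 pump genes in CPM per kilobase of exons (log axis) in the 4 libraries, by sector, with the 6 genes of the main list filled. Isoforms Atp6v1b1, Atp6v0a4, Atp6v1c2 and Atp6v0d2 lie under 0.1 CPM per kilobase while Tcirg1, Atp6v0b and Atp6ap1 lie over 100.

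The 3 transcription factors had a median of 10.7 CPM per kilobase, against 40.2 over all 43 genes. Tfe3 was measured at 148, 193, 202 and 170.3 CPM, Tfeb at 64.2, 61.1, 61.1 and 57.1 CPM and Mitf at 45.7, 54.8, 45.2 and 52.2 CPM. Tfeb moved least between libraries, with a ratio of highest to lowest of 1.12, and library 1 was the lowest for Tfe3 and the highest for Tfeb. Per kilobase Tfe3 had 19.2 ± 2.64, Tfeb 10.7 ± 0.514 and Mitf 7.98 ± 0.769 CPM. Tfe3 lay above Tfeb in all 4 libraries, 1.41 to 2.03 times, but per kilobase of the longest transcript the ratio ran from 0.851 to 1.23, so the order of those 2 was not settled. Mitf was the lowest of the 3 in each library under both lengths. Tfec, the fourth member of the family, was not detected in every library and had 2.61, 0.993, 1.32 and 0.833 CPM.

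Lrrk2 (ENSMUSG00000036273, chr15:91673175-91816120), a large kinase that phosphorylates Rab GTPases on stressed lysosomes, had the lowest level per kilobase of the 43 genes and the largest ratio between libraries. It had 351, 396, 97 and 549 counts in libraries 1 to 4, or 14.3, 17.1, 4.27 and 21.8 CPM, and 1.21 ± 0.626 CPM per kilobase. Library 3 lay 5.10-fold below library 4, and the next largest ratio of any of the 43 genes was the 1.85 of Man2b1. The goodness of fit in edgeR asks whether a gene spreads more between libraries than genes of a like level do in these same libraries. In that test the spread of Lrrk2 had a Benjamini-Hochberg adjusted p of 0.0803, which did not pass 0.05. The adjusted p was 0.0178 with DESeq2's dispersion trend and 0.889 in the quasi-likelihood test. That 0.889 was the smallest adjusted p of any tested gene in the quasi-likelihood test, so it does not set Lrrk2 apart from others. Leaving out library 3 gave 1.00 and leaving out library 1, 2 or 4 gave 0.0525, 0.216 and 0.342.

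Igf2r, the receptor that takes newly made hydrolases with a mannose-6-phosphate tag to lysosomes, had 17.5, 27.3, 8.45 and 39.1 CPM, and its libraries ranked as those of Lrrk2 did. Library 3 was lowest and library 4 highest, and its adjusted p was 0.0167 in edgeR's goodness of fit, 0.00471 with DESeq2's trend and 0.889 in the quasi-likelihood test. Again, no tested gene had a smaller adjusted p in the quasi-likelihood test. The call was lost without library 2, 3 or 4, with adjusted p-values of 0.0737, 0.398 and 0.455. Rragd, a Rag GTPase that ties nutrient supply to TFEB, had 13.6, 19.4, 5.33 and 26.0 CPM with an adjusted p of 0.0671 in edgeR, which did not pass, and 0.0142 with DESeq2's trend. Rragd was singled out after its values were seen. M6pr, the smaller mannose-6-phosphate receptor, had 253, 222, 258 and 214 CPM, with no such drop in library 3. Beside these 3 genes, choroid plexus markers summed to 11844, 11175, 2259 and 15540 CPM, endothelial markers to 744.9, 748, 159 and 637 CPM and pericyte markers to 606, 575, 87.2 and 385 CPM. Erythroid markers summed to 365, 174, 32.4 and 65.8 CPM. Neuronal markers summed to 23.6, 26.3, 15.9 and 27.5 CPM and oligodendrocyte markers to 852, 466, 379 and 587 CPM. Library 3 was lowest for these 6 sums as for the 3 genes, but not for other lists. Astrocyte markers summed to 273, 207, 245 and 293 CPM, lowest in library 2. Border-associated macrophage, monocyte, neutrophil and microglial sums were lowest in library 4. Of the 6 sums, those of choroid plexus and neurons had their highest value in library 4, as the astrocyte sum did. The neuronal sum had the full library order of Lrrk2, Igf2r and Rragd. Within the neuronal list only Map2 had that order. Snap25 and Camk2a were highest in library 3, Stmn2 and Rbfox3 in library 1 and Syt1 in library 2. Of the choroid plexus markers, Kl, Clic6, Kcnj13 and Otx2 had the full order, while Ttr and Folr1 were higher in library 1 than in library 2. The part of these markers in the values of Lrrk2, Igf2r and Rragd was not tested.

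**Figure D3:**
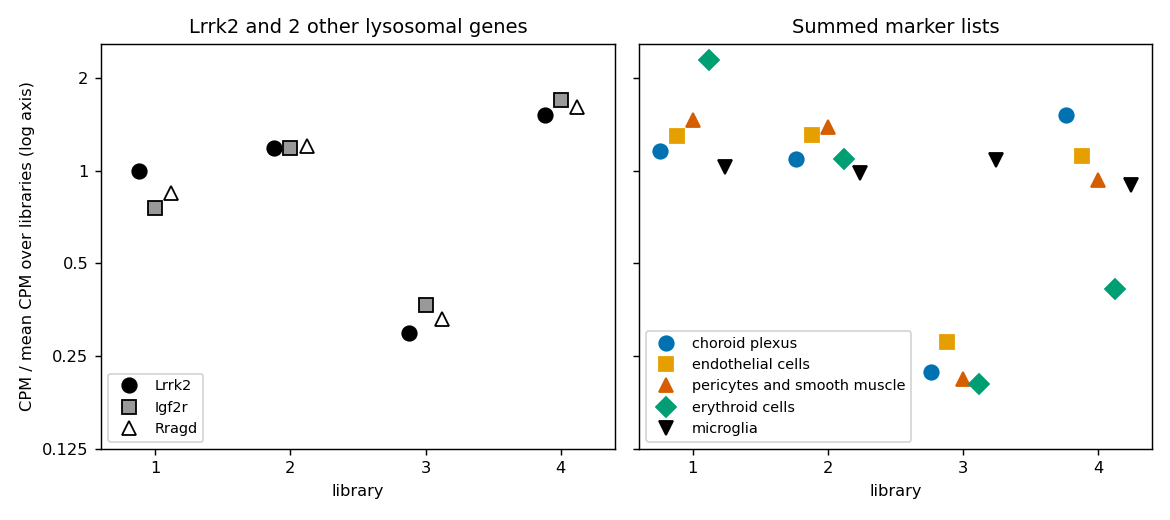
Left, CPM of Lrrk2, Igf2r and Rragd in each library relative to the mean of the gene over 4 libraries, and right, the same for summed marker lists (log axes). All 3 genes and the choroid plexus, endothelial, pericyte and erythroid lists have their lowest point in library 3. The sum of the microglial markers stays near 1.

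None of the other 42 genes passed the test of spread between libraries either. Because the test allows for the spread usual at a gene's level, not passing does not show that the libraries are alike. In edgeR's goodness of fit with Benjamini-Hochberg adjustment, 0 of the 43 genes passed an adjusted p of 0.05, where 3.28% of the 14112 tested genes did (463 genes). At an unadjusted p under 0.05 there was 1 of 43, Lrrk2, against 9.57% of all tested genes. Among tested genes with a mean of 50 CPM or more, 253 of 4284 were under it. The quasi-likelihood test gave 0, as it did over all tested genes, and DESeq2's trend gave 1 of the 43, again Lrrk2. In simulated counts for the same 14112 genes, the test found 13 of 100 genes raised 2-fold in 1 library and 74 of 100 raised 4-fold. It thus missed most 2-fold changes of that kind. The raised genes were drawn at random from all levels, so its reach for genes as abundant as Psap, Grn or Man2b1 was not measured. Ratios of highest to lowest library had a median of 1.30 over the 43 genes and 1.43 over all tested genes. Over the 4284 tested genes with a mean of 50 CPM or more the median was also 1.30. After Lrrk2 and Man2b1 the largest were Plbd2 (1.71), Grn (1.68), Atp6ap2 (1.59), Arsb (1.54), Npc1 (1.53), Gm2a (1.53), Npc2 (1.51) and Lamp1 (1.51).

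Hydrolases were then set against membrane and pump genes. The median hydrolase lay below the median of the 14 membrane and pump genes in every library, by log2 differences of -1.11, -0.90, -0.82 and -0.76 in libraries 1 to 4, each on CPM per kilobase plus 0.5. The mean difference was -0.90 ± 0.15 (SD, n = 4). Against the 8 membrane proteins alone it was -1.22 ± 0.16, and against the 6 pump genes alone -0.34 ± 0.18. With all 19 detected pump subunits as the other side, the log2 differences were -0.17, 0.12, 0.33 and 0.33, so the order of hydrolases and pump depended on which subunits stood for the pump. By summed levels the 20 hydrolases stood at 0.711, 0.685, 0.709 and 0.702 of the 14 membrane and pump genes, nearly level, and library 1 had the largest such ratio where it had the widest median gap. Since no test on a score over chosen genes was made, these gaps are descriptions.

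Ratios of summed levels within a library do not depend on how libraries are scaled. The 20 hydrolases summed to 3.60, 4.54, 5.40 and 4.56 times the 6 pump genes per kilobase in libraries 1 to 4, and the 8 membrane proteins to 4.06, 5.63, 6.61 and 5.50 times. The 5 cofactors summed to 6.14, 8.17, 10.2 and 8.68 times the pump. For all 3 role groups the ratio was smallest in library 1 and largest in library 3, with library 3 exceeding library 1 by 1.50 times for hydrolases and 1.63 times for membrane proteins. Differences of medians did not follow these sums. Membrane proteins minus pump were 0.85, 0.85, 0.93 and 0.91 on the log2 scale, hydrolases minus pump were highest in library 4 at -0.14, and cofactors minus pump were lowest in library 2 at 1.67. Sums of hydrolases against membrane proteins were steadier, at 0.885, 0.807, 0.816 and 0.829. Atp6ap2, highest in library 1, carried part of the difference: without it library 3 exceeded library 1 by 1.33 times for hydrolases and 1.44 times for membrane proteins. With all 19 detected pump subunits the same values were 1.39 and 1.50.

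**Figure D4:**
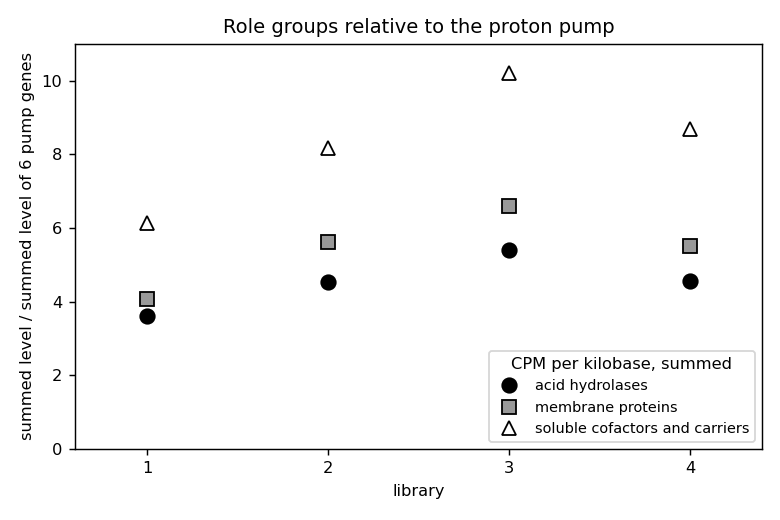
Summed CPM per kilobase of the hydrolases, membrane proteins and cofactors divided by that of the 6 pump genes, in each library. For each role group the ratio is lowest in library 1 and highest in library 3, from 3.60 to 5.40 for the hydrolases.

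The same libraries stood out gene by gene. Of the 43 genes, 28 were highest in library 3, where 28.3% of all tested genes were, and 22 were lowest in library 1, where 31.0% were. Among the 4284 tested genes with a mean of 50 CPM or more, a level closer to that of these genes, those shares were 46.4% and 47.4%. By role, 15 of 20 hydrolases, 5 of 5 cofactors, 6 of 8 membrane proteins and 1 of 6 pump genes (0 to 3 under other scalings) were highest in library 3. From library 1 to library 3 the level was higher for 18 of 20 hydrolases, 5 of 5 cofactors, 6 of 8 membrane proteins and 2 of 6 pump genes (4 with TMM factors from the filtered genes), 32 of 43 in all, where 44.5% of tested genes and 64.4% of those at 50 CPM or more were higher. The median log2 ratio of library 3 to library 1 was 0.32 for hydrolases, 0.52 for cofactors, 0.49 for membrane proteins and -0.03 for the pump, against -0.07 over all tested genes and 0.13 over those at 50 CPM or more.

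**Figure D5:**
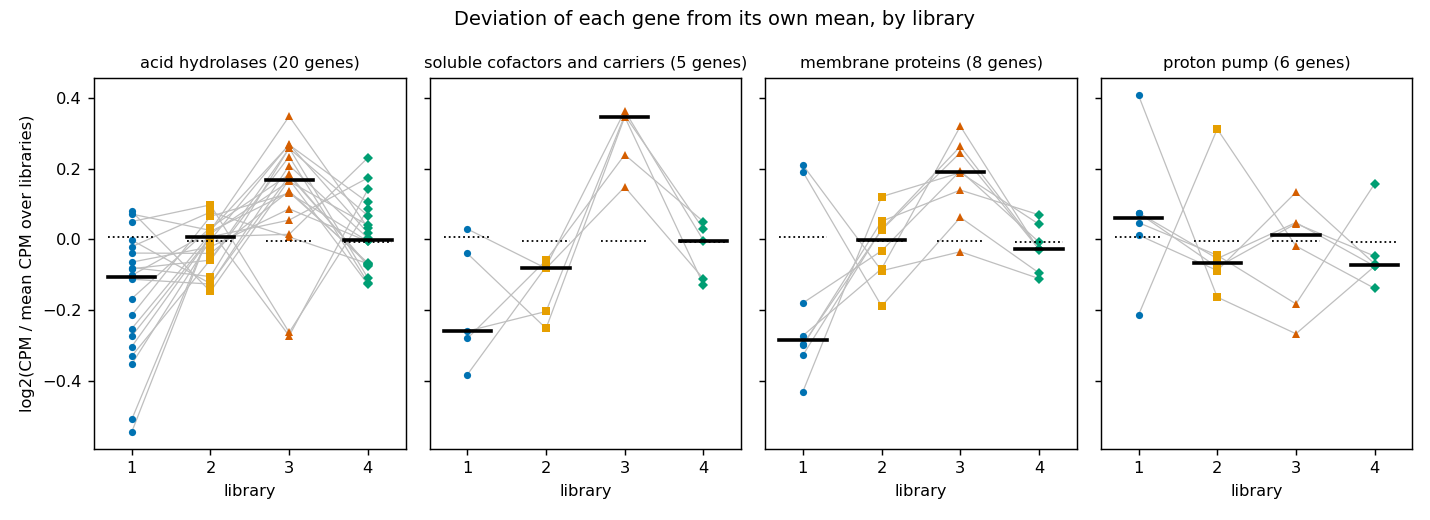
Log2 of the CPM of a gene in a library over its mean in 4 libraries, by role group, with thin lines joining the points of 1 gene, thick bars at the group median and dotted bars at the median of all tested genes. Medians in library 3 are 0.17 for hydrolases, 0.35 for cofactors, 0.19 for membrane proteins and 0.01 for the pump, and scaling on microglial markers lowers the first to 0.031 and turns the last to -0.127.

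How far library 3 stood out depended on scaling. The 10 microglial markers differed among themselves in library order. Scaling the libraries on the 10 microglial markers in place of TMM moved every gene by -0.06, 0.05, -0.14 and 0.14 on the log2 scale in libraries 1 to 4. Then 9 of 43 genes were highest in library 3, against 6.79% of all tested genes under that scaling, and 4 of 20 hydrolases, 3 of 5 cofactors, 2 of 8 membrane proteins and 0 of 6 pump genes were. In the comparison of library 3 with library 1 the count was 31 of 43 under that scaling, against 37.9% of tested genes, and library 1 was lowest for 27 of 43, against 34.2%. Without library 3, library 1 held the lowest value of 25 of 43 genes among the other three, where 43.7% of tested genes were lowest in it, and the highest value of 4 of 6 pump genes, where 41.1% of tested genes were highest in it. These shares, with microglial scaling or without library 3, are over all tested genes and not over genes of a like level. The sum of the interferon response genes had the order of libraries of Psap, Grn and Man2b1, from library 1 through 2 and 4 to library 3, with 153, 251, 379.9 and 565 CPM in that order. Of the 8 genes, Ifit1 departed from it, being lowest in library 2. Border-associated macrophage markers, all 7 detected, summed to 668, 319, 303 and 266 CPM in libraries 1 to 4, highest in library 1. The part of either in the order of the lysosomal genes was not tested.

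Other genes of the lysosome, in 5 further lists of 80 genes, gave the wider setting, and 74 of them were detected. Of these 80, 1 passed the test between libraries in edgeR, Igf2r, where 3.28% of tested genes did. At an unadjusted p under 0.05 there were 0 other hydrolases, 0 other pump subunits, 1 other membrane protein, 1 sorting gene and 2 genes of TFEB control, where 9.57% of tested genes were. Of the 4284 tested genes with a mean of 50 CPM or more, 253 were. Of 19 other acid hydrolases 18 were detected and 0 passed. Of those 18, 11 were highest in library 3, where 28.3% of tested genes and 46.4% of those at 50 CPM or more were, and 2 were so with libraries scaled on microglial markers, where 6.79% of tested genes were. Pla2g15, a lysosomal phospholipase, had 165 ± 12.8 CPM per kilobase. Rnaset2a, a ribonuclease nearly identical to Rnaset2b, was not detected and had 0.938, 0.475, 0.308 and 0.397 CPM. Only 18.4% of the 50-base stretches of Rnaset2a and 18.2% of those of Rnaset2b are unique. Their levels are therefore uncertain, and the lack of detection does not show absence.

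Of the 13 other pump subunits that were tested, 0 passed, and 8 were highest in library 1, where 34.2% of tested genes were. All 16 other membrane proteins were detected and 0 passed, from Laptm4a, a relative of Laptm5, at 262 ± 26.7 and Cd164, a sialomucin, at 174 ± 21.1 to Mfsd8, a transporter-like protein, at 2.14 ± 0.119 CPM per kilobase. All 13 sorting genes were detected and Igf2r alone passed. M6pr had 56.8 ± 5.25, Sort1, another sorting receptor, 50.3 ± 5.98 and Igf2r 2.48 ± 1.41 CPM per kilobase, so M6pr was the receptor for tagged hydrolases with the higher level. Of 15 genes that control TFEB through nutrient sensing 14 were detected and 0 passed, among them Lamtor4 of the Ragulator complex at 46.3 ± 18.3 and Flcn, folliculin, at 42.0 ± 4.20 CPM per kilobase.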

How the data were processed

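Poly(A) RNA-seq libraries of 4 brain CD11b+ cell samples in 1 group were analysed from raw counts per gene. The authors deposited those counts, for which the submitters' processing notes name the build GRCm38 and the tools featureCounts 1.6.5, STAR 2.7.2b and bcl2fastq 2.20.0.422. The sources used here give no annotation, strand setting or handling of multi-mapping reads. Genes with under 95% unique 50-base stretches in the longest transcript or over 5% exonic overlap, 10 of the 43, are therefore uncertain in level. Of 55471 identifiers 55230 matched GENCODE M21, and the other 241 held at most 0.00526% of a library.

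CPM used TMM factors from all genes in edgeR 4.0.16 (R 4.3.3). A floor of 3 counts equals 0.122, 0.130, 0.132 and 0.119 CPM, a limit for counting error alone, because PCR reads that carry no molecular identifier are not separate molecules. Spread was tested by residual deviance of an intercept-only negative binomial fit with trended dispersion, set against chi-square with 3 degrees of freedom and Benjamini-Hochberg adjusted over the 14112 genes kept by filterByExpr. The quasi-likelihood variance and DESeq2 1.42.0 were alternatives. The test was checked on simulated data, with 3 false calls.

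The genes and lists were chosen with earlier results of these data known. Values in every library are given for the 3 highest and the lowest gene per kilobase of each role group of 5 or more, all genes of smaller groups, the 10 with the largest ratio of highest to lowest library and any gene past the threshold, and of further lists the 2 highest, the lowest and any past the threshold are named, apart from items that are not reported here. TMM from filtered genes, the pump sets without Atp6ap2 or with all subunits, and counts without library 3 were chosen after seeing the data.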

Additional observations from a re-analysis of the deposited data

Results flagged for a closer look

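In 4 of the 43 lysosomal genes, 1 library lay far from the other three, by a gap of over 0.829 of the whole range of CPM. These were Hexa (0.929), Arsa (0.862) and Gusb (0.839), each high in library 3, and Gla (0.855), low in library 3. Hexa had 969, 952, 1224 and 949 CPM, Arsa 61.8, 61.8, 69.8 and 60.5, Gusb 292, 296, 363 and 284 and Gla 10.1, 10.5, 8.14 and 10.4 CPM in libraries 1 to 4. Chance flags about 1 in 20 such groups of 4, and 8.4% of all tested genes met the same criterion.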

How the results depend on the processing

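No paired analysis was possible because there was only 1 group. Mean CPM of all 43 genes moved by less than the SD between libraries under each scaling and each left-out library, while the longest transcript in place of merged exons moved the level per kilobase of 29 of 43 beyond it. No result turned its direction past a threshold. The 463 genes called over the whole table became 467 with total counts, 461 with DESeq2 size factors, 433 with TMM from filtered genes, 419 of 27874 without a filter, 0 in the quasi-likelihood test, 616 with DESeq2's trend and 106 to 425 without 1 library, fewest without library 3. Of the 43 genes, 1 passed with DESeq2's trend and 0 otherwise, the runs without 1 library included. Of the 80 further genes, 0 passed in the quasi-likelihood test. At an unadjusted p under 0.05 in that test there were 3, where 658 of 14112 tested genes were. With DESeq2's trend 2 passed (Igf2r and Rragd), and 0 to 2 passed without 1 library. Rragd had an adjusted p of 0.0357 without library 1, and Lamtor4 0.0478 without library 3. The mean log2 gap of hydrolases to membrane and pump genes was -0.359 with the cofactors counted as hydrolases, -1.218 against membrane proteins alone, -0.335 against the pump alone, -1.060 without uncertain genes and -0.943 to -0.825 without 1 library. With microglial scaling, the median deviation of hydrolases was 0.031 in library 3 and 0.139 in library 4, and that of the pump -0.127 and 0.070. That scaling left 9 genes highest in library 3, of them 4 hydrolases, 3 cofactors, 2 membrane proteins and 0 pump genes, and put 2 of the further hydrolases highest in library 3 and 1 pump gene highest in library 1. It left 7 of 43 genes lowest in library 1 and highest in library 3, among them 3 hydrolases and 2 membrane proteins. TMM gave 19 of 43, where 17.2% of all tested genes had that order. No such share was taken under microglial scaling or over genes of a like level, so these counts are descriptions only. TMM from filtered genes put 1 pump gene highest in library 1, 3 highest in library 3 and 4 higher in library 3 than in 1, and DESeq2 size factors put 2 highest in library 3. The cause of these shifts was not tested. The fewest counts of any of the 43 genes in a library were the 97 of Lrrk2 in library 3, while over the 4 libraries counting error was largest for Gla, with a CV of 6.54%.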
